A study of Drosophila melanogaster with 23 samples.

Results

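The genes of the RNA polymerase II transcription apparatus were taken by their FlyBase symbols: every gene whose symbol begins with MED and a digit, with Taf and a digit, with Polr2 or with TfII. There were 62 such genes among the 17606 gene identifiers of the count table: 25 Mediator subunits, 14 TBP-associated factors (TAFs), 13 RNA polymerase II genes, 9 general factors named TfII, and Taf12L, a testis paralog that is described apart. The samples were pools of whole first-instar Drosophila melanogaster larvae (L1), 25 to 30 animals each, male and female together, raised at 25 °C, and total RNA was sequenced. The 6 genotypes were yw (3 libraries), the Set2 mutant Set21 (4 libraries), the histone control H3.3CtrlH3.2HWT, H3.3CtrlH4K16R, H3.3K36RH3.2HWT and H3.3K36RH3.2K36R (4 libraries each). The last 3 are called H4K16R, H3.3K36R alone and combined H3K36R here. Set2 is the methyltransferase that trimethylates lysine 36 of histone H3. The other mutants carry arginine in place of a histone lysine that can be modified. The labels give the genotypes in these short forms only, and the sources used here do not give the alleles, transgenes or drivers behind them, or what the controls carry. The submitters dropped replicate 1 of yw for a library construction error.

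RNA polymerase II makes the messenger RNAs of the cell. General factors place it at the promoter: TFIID, made of the TATA-binding protein and the TAFs, contacts promoter DNA, TFIIA and TFIIB join it, TFIIF escorts the polymerase, and TFIIE brings in the helicase and kinase complex TFIIH. Mediator bridges activators and the polymerase through its tail, middle and head modules, held together by the scaffold subunit MED14, and a separable kinase module binds to it. Of the polymerase subunits, Polr2E, Polr2F, Polr2H, Polr2K and Polr2L belong to RNA polymerases I and III as well. The others are particular to RNA polymerase II, and Polr2M is, as known from mammals, an associated protein (Gdown1) rather than a core subunit.

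Library totals ran from 111138070 to 157973821 counts. Set2 itself, the targeted gene, was at 77.3 ± 6.23 CPM (counts scaled to library size; mean ± SD, n = 3) in yw and at 6.51 ± 1.2 CPM (n = 4) in Set21. On an axis of spread taken within the histone genotypes, replicate 3 of H4K16R stood apart with a score of 97.91, against -32.08 to -20.05 for the other 3 libraries of that genotype. Replicate 3 of the histone control (42.31) and replicates 3 and 4 of H3.3K36R alone (58.91 and 47.26) lay in the same direction, as did the 4 Set21 libraries (68.76 to 85.65). The yw libraries were at 2.101 to 8.28. As yw and Set21 do not overlap on this axis, the axis and the genotype cannot be told apart between them. Markers of proliferating cells (PCNA, Mcm2, Mcm5, stg and CycE, none of them at 0 in any library) moved with the genotypes: their summed level was 95.9 to 128 CPM in yw and 189 to 230 CPM in Set21. It was 70.9 to 131 CPM in the histone control, 86.1 to 174 CPM in H4K16R, 111 to 166 CPM in H3.3K36R alone and 34.8 to 65.4 CPM in combined H3K36R. The summed level of 5 neuronal markers (elav, nSyb, brp, Syt1, para) was 1040, 1170, 446 and 1090 CPM in Set21 replicates 1 to 4 against 1550 to 1700 CPM in yw, so that replicate 3 of Set21 stood apart. Trf2, a TBP relative, was at 48 CPM in that library and at 229 to 257 CPM in the other 3. Without it, 37 members rose and 1 fell in Set21, against 35 and 1 with it. Of all tested genes 3213 rose and 3120 fell without it, against 3361 and 3038 with it. The neuronal markers were at 1620 to 2020 CPM in the histone control and 1830 to 2100 CPM in combined H3K36R, and none of the 5 was at 0 in any library. The part of either marker group in the results was not tested. In whole larvae, fewer cells of a type and less RNA per cell cannot be told apart.

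Of the 62 genes, 60 passed the filter on low counts and were tested. MED9 and Polr2D were listed at 0 in all 23 libraries, and in the annotation every exonic base of each is shared on the same strand with another gene, CG42518 and Ada2a. Levels were compared between genes only as CPM per kilobase of exon, averaged over the genotypes. Polr2K was highest at 72 CPM per kb, followed by Polr2F (52.7), TfIIA-S (38.2), Polr2A (35.8) and Polr2H (33.1). At the other end were MED16 (2.93), Taf7 (3.35), MED4 (4.25) and MED17 (4.53), with the paralogs TfIIA-S-2 (0.87) and Taf12L (0.253) below them. Annotated parts of TfIIB (26.8% of its exonic bases), MED24 (22.6%), Taf3 (19.8%), Polr2G (15.9%) and Polr2L (15.3%) overlap a gene on the opposite strand. The sources do not state whether counting used strand, so reads of such partners may be included.

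In Set21 larvae the RNA polymerase II genes were higher than in yw throughout: all 12 tested members rose, with log2 fold changes from 0.37 to 1.07 and a median of 0.83. Over all 62 genes, 35 of the 60 tested rose and 1 fell (edgeR quasi-likelihood test, adjusted p below 0.05), where 23.4% of the 14365 genes tested rose and 21.1% fell. The median log2 fold change of the 60 was 0.38, against 0.02 for all genes. Polr2F, a shared subunit, measured 29.2, 20.6 and 16.8 CPM in yw and 52.0, 61.4, 37.7 and 35.8 CPM in Set21. The groups did not overlap, and the gene rose 2.1-fold (log2 1.07 ± 0.19 SE, adjusted p = 0.000152). Genes given by library for a large change were chosen among those without overlap. The lack of overlap is thus no separate support for them, here or below. Polr2G, which with Polr2D forms the stalk of the enzyme, measured 8.15, 7.51 and 6.76 CPM in yw and 16, 14.5, 16.2 and 14.9 CPM in Set21 (log2 1.04 ± 0.23, adjusted p = 0.000991). Every Set21 library was above every yw library. Polr2E, another shared subunit, measured 23.9, 19.3 and 22.7 CPM in yw and 43.3, 45.2, 43.2 and 36.1 CPM in Set21, again with no overlap (log2 0.93 ± 0.17, adjusted p = 0.000204).

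The largest subunits rose too, by unequal amounts. Polr2A, the catalytic subunit that carries the C-terminal repeat domain, was at 250, 236 and 235 CPM in yw and at 324, 338, 252 and 325 CPM in Set21, a log2 change of 0.37 ± 0.10 (adjusted p = 0.0076). Replicate 3 of Set21 was close to yw, and without it the change was 0.45 ± 0.09. Polr2B, the second-largest subunit and the other side of the active centre, was at 56.5, 58.5 and 60.4 CPM in yw and at 104, 106, 100 and 102 CPM in Set21. Its replicates lay close together, and its log2 change was 0.81 ± 0.13 (adjusted p = 4.57e-05). Polr2C, an assembly subunit, went from 8.41, 10.3 and 9.46 CPM to 17.9, 20.6, 18.2 and 15.8 CPM (log2 0.95 ± 0.17, adjusted p = 0.000202). Polr2J, its partner, went from 11, 9.73 and 8.69 CPM to 16.9, 20.1, 17.1 and 16.8 CPM (log2 0.86 ± 0.20, adjusted p = 0.00158). For neither gene did the groups overlap. Among the rest, Polr2L rose by 0.85, Polr2H by 0.74, Polr2K by 0.66, Polr2M by 0.60 and Polr2I by 0.50 on the log2 scale. The call of Polr2K was lost without yw replicate 4 or Set21 replicate 2. When the fit took that axis of spread in as a covariate, 7 of the 12 were called (Polr2B, Polr2C, Polr2E, Polr2F, Polr2G, Polr2H and Polr2J), and 13 of all members. In that fit 1403 of the 14365 genes tested rose, against 3361 without the covariate. Set21 and yw do not overlap on the axis, so the covariate may also take out part of the genotype difference. That limit holds for the other gene groups of Set21 below as well.

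**Figure D1:**
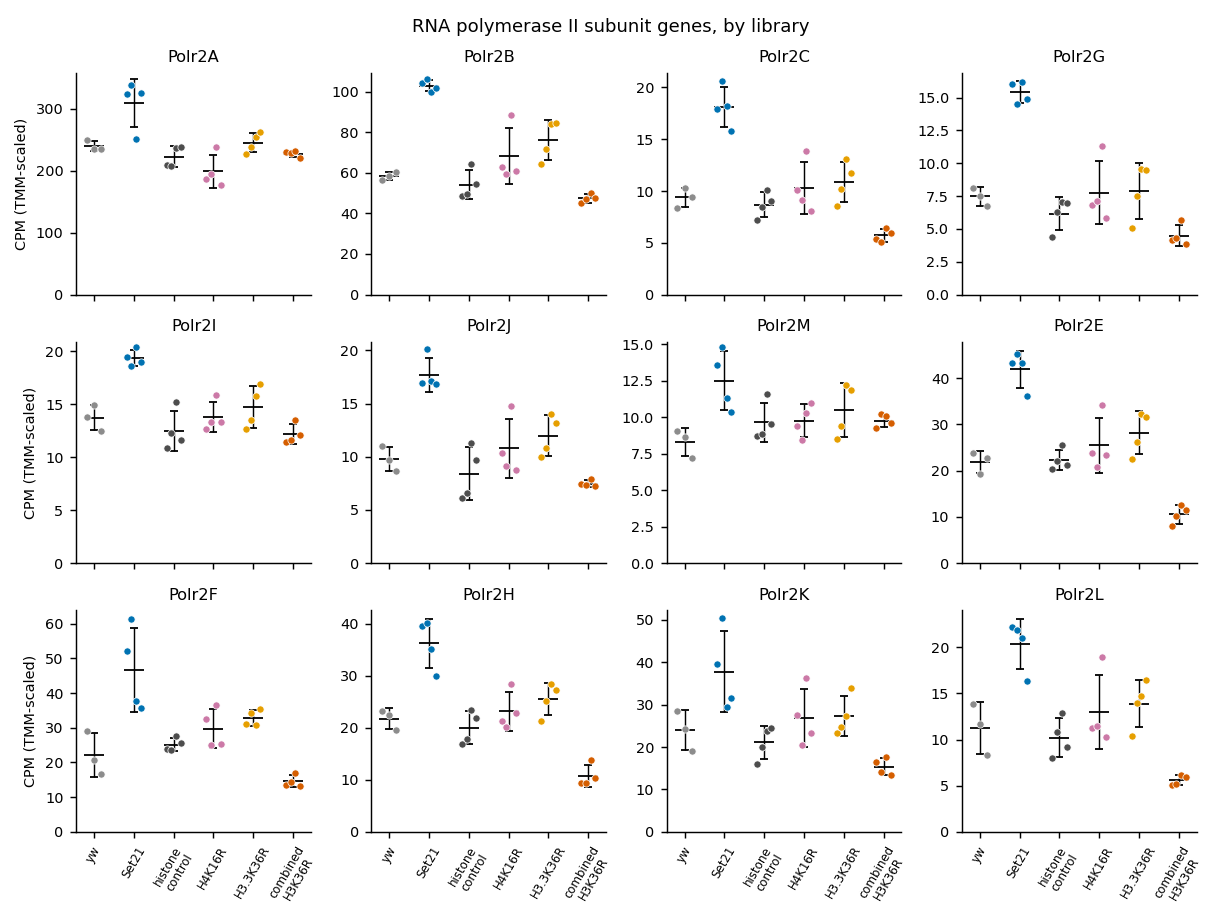
Level of the 12 tested RNA polymerase II genes (vertical axis, CPM) in each library of the 6 genotypes (horizontal axis); points are libraries, bars the mean ± SD. The Set21 libraries lie above yw in every panel, and for Polr2E the combined H3K36R libraries (8.02 to 12.6 CPM) lie below all others.

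Among the 24 tested Mediator subunits, 9 (37.5%) rose in Set21 and none fell by edgeR, where 23.4% of all tested genes rose and 21.1% fell. Their median log2 change was 0.23. DESeq2 called 11 higher and 0 lower, where it called 3597 and 3200 of all 14365 genes. At an unadjusted p below 0.05, 14 had a higher level and 0 a lower one, a threshold at which no share of all genes is given here. The edgeR count was 4 of 9 for the head, 1 of 8 for the middle and 4 of 6 for the tail. The head subunits that rose were MED20 (0.84 ± 0.22), MED30 (0.70 ± 0.17), MED28 (0.56 ± 0.17) and MED17 (0.52 ± 0.14), MED17 being the central subunit of that module. In the tail, where activators bind, MED27 (0.60 ± 0.16), MED15 (0.50 ± 0.09), MED16 (0.47 ± 0.15) and MED23 (0.30 ± 0.12) rose. MED20 showed the widest separation, with 5.45, 5.42 and 4.66 CPM in yw and 9.92, 10.3, 8.79 and 8.11 CPM in Set21. The scaffold MED14 was at 66.0, 59.9 and 60 CPM in yw and at 68.5, 76.6, 66.7 and 71.3 CPM in Set21, which was not called (log2 0.19 ± 0.08, adjusted p = 0.065). MED1, a middle subunit known for binding nuclear receptors, was at 50.1, 50.4 and 54.8 CPM against 52.2, 55.3, 58.6 and 58.4 CPM, groups that overlap (adjusted p = 0.169). The call of MED23 was lost without yw replicate 3 or 4 or Set21 replicate 2, and that of MED10, the middle subunit that rose (0.38 ± 0.13), without yw replicate 3 or 4 or Set21 replicate 3. With the axis as a covariate, which cannot be told apart from the genotype here, MED15 and MED17 were the Mediator genes still called.

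Among the 14 TAFs, 8 (57.1%) rose and 1 (7.14%) fell in Set21, where 23.4% of all tested genes rose and 21.1% fell. Their median log2 change was 0.28. Those that rose included Taf10b (0.60 ± 0.16) and Taf10 (0.52 ± 0.10), paralogs that lie next to each other on chromosome arm 2L, and the histone-fold subunits Taf9 (0.54 ± 0.17) and Taf8 (0.54 ± 0.16). Without replicate 3 or replicate 4 of yw, 4 TAFs rose: the call of Taf8 was lost without the first and that of Taf9 without the second. Of all tested genes 2628 and 2373 rose in these 2 fits, against 3361 with all libraries. The exception was Taf6, a histone-fold subunit of the TFIID core (gene at 3L:19599088-19601382, BDGP6.54). It was at 32.1, 34.7 and 37.3 CPM in yw and at 26.8, 27.4, 28.5 and 28.1 CPM in Set21. All 4 mutant libraries were below the 3 yw libraries (log2 -0.33 ± 0.09, adjusted p = 0.00569). With the axis as a covariate Taf6 was not called (log2 -0.22, adjusted p = 0.0861), and of the 8 TAFs that rose only Taf10 was. Taf1, the largest TAF, was at 112, 117 and 112 CPM in yw and at 124, 134, 120 and 135 CPM in Set21, a small rise (log2 0.17 ± 0.07, adjusted p = 0.0412) whose call was lost without any 1 of the 3 yw libraries or Set21 replicate 2. Taf4 measured 177, 168 and 170 CPM against 173, 200, 135 and 181 CPM. Its groups overlapped (adjusted p = 0.974).

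Of the 9 general factors 6 rose in Set21: TfIIFalpha (0.82 ± 0.17) and TfIIFbeta (0.71 ± 0.13), the paired subunits of TFIIF, TfIIA-S (0.62 ± 0.13), TfIIEalpha (0.52 ± 0.13), TfIIEbeta (0.38 ± 0.14) and the elongation factor TfIIS (0.40 ± 0.11). These were 66.7% of the 9, where 23.4% of all tested genes rose. The call of TfIIEbeta was lost without yw replicate 3 or 4 or Set21 replicate 1 or 2, and also with the length trend removed. With the axis as a covariate 3 of the 6 were called, and TfIIEalpha (adjusted p = 0.105), TfIIEbeta (0.396) and TfIIS (0.185) were not. TfIIFalpha was at 51.0, 48.0 and 43.2 CPM in yw and at 93.3, 95.4, 67.2 and 77.7 CPM in Set21. TfIIB, which bridges TBP and the polymerase, was at 22.5, 20.7 and 20.2 CPM in yw and at 22.7, 21.8, 24.4 and 23.5 CPM in Set21, groups that overlap (adjusted p = 0.285). Replicate 3 of Set21, which stood apart on the neuronal markers and Trf2, was also low for both members on chromosome 4 and for Taf4: Taf3 was at 68.1 CPM there against 129 to 141 CPM in the other 3, and MED26 at 105 CPM against 151 to 160 CPM. Over the 111 tested genes of that chromosome, this library lay at a median of -0.15 from its genotype's mean on the log2 scale. That was the largest such deviation of any library, the others lying between -0.09 and 0.09.

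In combined H3K36R larvae, against the histone control, 5 of the 12 polymerase genes were lower and a few TAF, TFIIA and Mediator genes were higher. In all, 8 of 60 members rose and 6 fell, where 16.4% of all tested genes rose and 22.8% fell, so neither share is above that of the whole table. The median log2 change was 0.00 for the members and -0.02 for all genes. Without replicate 1 of the histone control, 10 members fell, where 3251 of all 14356 tested genes did (3277 of 14365 with it). Of the 12 polymerase genes 5 fell and none rose by edgeR (0 had a higher level at an unadjusted p below 0.05 and DESeq2 called 0 higher). The subunits shared with polymerases I and III accounted for 4 of the 5: their median log2 change was -0.86, against -0.17 for those particular to RNA polymerase II.

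Polr2E, a shared subunit, was at 20.4, 22.1, 25.5 and 21.3 CPM in the histone control and at 8.02, 10.1, 12.6 and 11.4 CPM in combined H3K36R, a 2.12-fold fall (log2 -1.08 ± 0.15, adjusted p = 1.01e-05). Polr2H was at 16.8, 17.8, 23.4 and 21.9 CPM against 9.4, 9.32, 13.8 and 10.3 CPM (log2 -0.90 ± 0.14, adjusted p = 3.84e-05). Polr2L was at 7.96, 10.8, 12.9 and 9.21 CPM against 5.11, 5.23, 6.18 and 5.98 CPM (log2 -0.86 ± 0.20, adjusted p = 0.0012). For each of these, all combined H3K36R libraries were below all control libraries, a condition of their choice. Polr2F, the remaining shared subunit called, fell from 23.9, 23.6, 27.5 and 25.5 CPM to 13.5, 14.3, 17 and 13.2 CPM (log2 -0.80 ± 0.17, adjusted p = 0.000707). Polr2C was the member particular to RNA polymerase II that fell, from 7.19, 8.44, 10.1 and 9.02 CPM to 5.4, 5.06, 6.39 and 5.98 CPM (log2 -0.61 ± 0.16, adjusted p = 0.0034). Polr2K, the fifth shared subunit, had a log2 difference of -0.45 ± 0.19 and was not called (adjusted p = 0.0661). The catalytic subunits differed little from the control: Polr2A was at 209, 207, 237 and 239 CPM in the control and at 230, 228, 232 and 220 CPM in combined H3K36R (log2 0.03 ± 0.10), and Polr2B at 48.4, 49.4, 64.3 and 54.4 CPM against 44.9, 47.0, 49.9 and 47.7 CPM (log2 -0.19 ± 0.12). In both, the groups overlapped.

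Taf6 rose in combined H3K36R, opposite to its change in Set21. It was at 37.4, 34.2, 34.2 and 37.1 CPM in the histone control and at 74.7, 77.8, 64.0 and 62.1 CPM in combined H3K36R, a 1.95-fold rise (log2 0.96 ± 0.08, adjusted p = 2.47e-08). It lay between 26.8 and 40.8 CPM in the other 19 libraries. TfIIA-L, whose product is cleaved into the large TFIIA subunits (3R:27251112-27256463), rose from 49.0, 49.6, 54.1 and 46.4 CPM to 70.5, 74.2, 70.0 and 77.1 CPM (log2 0.55 ± 0.07, adjusted p = 4.19e-06). Its partner TfIIA-S had a log2 difference of 0.30 ± 0.12 that was not called (adjusted p = 0.0566). MED31, a middle subunit (3R:4641963-4643292), rose from 21.5, 19.4, 22.3 and 22.6 CPM to 29.9, 31.1, 27.3 and 27.0 CPM (log2 0.43 ± 0.07, adjusted p = 7.67e-05). None of these 3 genes overlapped between the groups, which was a condition for Taf6, TfIIA-L and MED31 to be chosen.

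The other rises were small. MED24 went from 19.1, 16.4, 19.8 and 19.1 CPM to 22, 24.6, 23.5 and 22.5 CPM (log2 0.32 ± 0.09, adjusted p = 0.00501). Taf4 went from 154, 158, 162 and 170 CPM to 202, 207, 188 and 186 CPM (log2 0.28 ± 0.09, adjusted p = 0.0114), and Taf1 from 98.6, 102, 112 and 112 CPM to 125, 131, 123 and 127 CPM (log2 0.25 ± 0.06, adjusted p = 0.00251). With the length trend removed, Taf1 was not called (log2 0.12, adjusted p = 0.236). MED1 went from 47.7, 45.5, 47.7 and 49.7 CPM to 54.7, 59.1, 54.7 and 55.3 CPM (log2 0.23 ± 0.06, adjusted p = 0.00491), and with the length trend removed it was not called either (log2 0.12, adjusted p = 0.237). MED15 rose by 0.27 ± 0.08, a call lost without replicate 1 of the histone control (adjusted p = 0.0526). Among the TAFs, Taf9 fell (log2 -0.42 ± 0.16, adjusted p = 0.0371), a call lost without replicate 2 or 3 of the histone control or replicate 1, 2 or 4 of combined H3K36R, and with the length trend removed. No Mediator gene fell by edgeR (0 lower at an unadjusted p below 0.05, and 0 by DESeq2). MED14 was at 55.9, 57.0, 67.3 and 61.2 CPM in the control and 55.4, 61.4, 64.0 and 56.9 CPM in combined H3K36R, and TfIIB at 18.2, 19.7, 22.7 and 18.5 CPM against 17.2, 19.3, 19.4 and 20.2 CPM. For both, the groups overlapped.

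**Figure D2:**
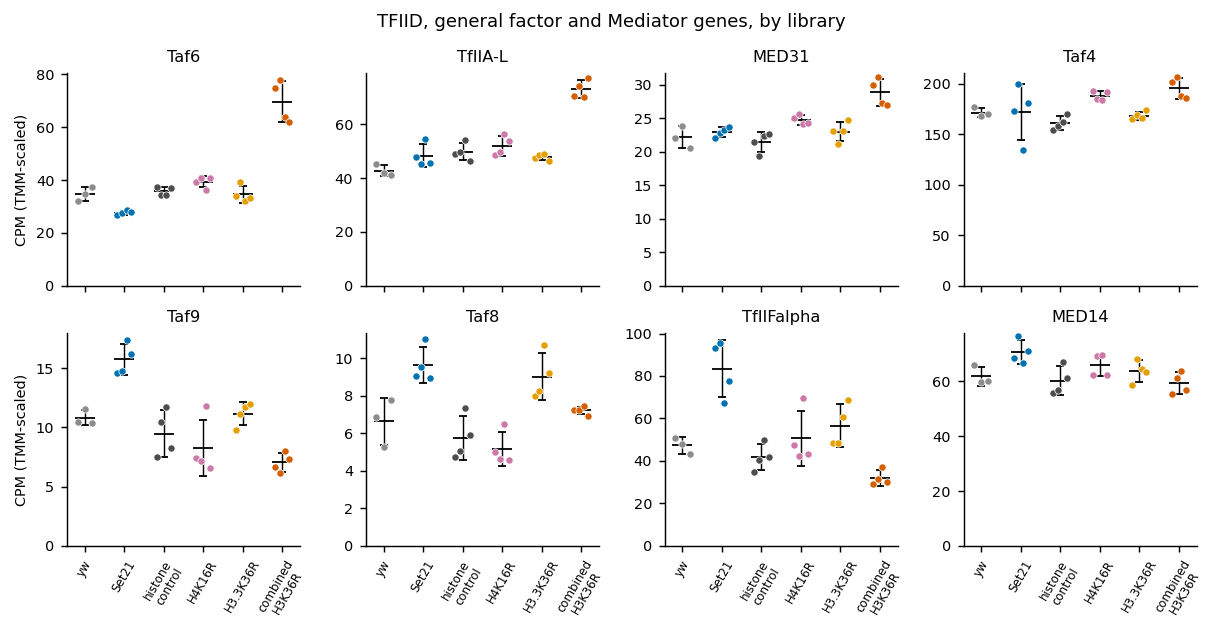
Level (vertical axis, CPM) of 5 TAF or TFIIA genes, of TfIIFalpha and of the Mediator subunits MED31 and MED14 in each library of the 6 genotypes (horizontal axis); points are libraries, bars the mean ± SD. For Taf6 the combined H3K36R libraries lie at 62.1 to 77.8 CPM and the Set21 libraries at 26.8 to 28.5 CPM.

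Replacing H3.2 lysine 36 in addition to that of H3.3 was compared by setting combined H3K36R against H3.3K36R alone. Of 60 members 5 rose and 22 fell, where 19.7% of all tested genes rose and 28.0% fell, and the median log2 difference was -0.20 against -0.03 for all genes. The polymerase genes made up 10 of the 22, with a median of -0.82, and Polr2A and Polr2M were the tested members not called. In the same comparison all 5 markers of proliferating cells were lower (median -1.74), as were all 4 muscle markers (Mhc, Act57B, Mlc2 and up, median -0.49), and their part was not tested. With the length trend removed 14 of the 22 falls were still called, and with the axis as a covariate 15. For the polymerase genes these settings kept 9 of 10. Polr2E differed most (log2 -1.42 ± 0.15, adjusted p = 2.47e-07), with levels of 22.6, 26.2, 32.3 and 31.7 CPM in H3.3K36R alone. Polr2L was at 10.4, 14, 14.7 and 16.4 CPM there (-1.30 ± 0.20) and Polr2H at 21.4, 25.2, 28.4 and 27.2 CPM (-1.26 ± 0.15). For each of these, and for Polr2F and Polr2C, every library of combined H3K36R lay below every library of H3.3K36R alone. Polr2F was at 31, 34.3, 30.8 and 35.4 CPM in H3.3K36R alone (-1.18 ± 0.17) and Polr2C at 8.52, 10.2, 13.1 and 11.7 CPM (-0.93 ± 0.16). The smallest fall, of Polr2I (-0.28 ± 0.11, adjusted p = 0.0433), was lost without replicate 1, 2 or 4 of combined H3K36R or 2, 3 or 4 of H3.3K36R alone. It was also lost in every other setting but the replicate block, and its log2 value was -0.01 with the length trend removed. Also lower were TfIIFalpha (-0.83 ± 0.16), TfIIFbeta (-0.60 ± 0.12), TfIIS (-0.40 ± 0.10), Taf9, Taf10b, Taf10 and Taf2, and the head subunits MED18, MED20, MED22, MED28 and MED8. Of these head subunits, MED18 was still called with the axis as a covariate or with the length trend removed. The calls of Taf10b and, with length, of Taf10 and TfIIS, or, with the axis, of Taf2 were lost. The 5 that rose were Taf6 (1.01 ± 0.08), TfIIA-L (0.61 ± 0.07), MED31 (0.32 ± 0.07), Taf4 (0.22 ± 0.09) and MED1 (0.16 ± 0.06), none with overlapping groups. In H3.3K36R alone, Taf6 was at 34, 39.1, 32 and 33.2 CPM, and TfIIA-L at 47.5, 48.4, 48.9 and 46.2 CPM. MED31 was at 23.1, 21.1, 23.1 and 24.7 CPM there, close to the histone control. Without replicate 1 or replicate 2 of combined H3K36R, 3 rose, where 2482 or 2461 of all tested genes did (2835 with all libraries). The calls lost were those of Taf4 and MED1. With the length trend removed those 2 calls were lost as well, with MED1 at 0.01. The calls of Taf10b and Taf2 were lost without replicate 3 or 4 of H3.3K36R alone. Of the 5 Mediator falls, between 1 and 3 were called without replicate 1, 2 or 4 of combined H3K36R or replicate 2, 3 or 4 of H3.3K36R alone.

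In H3.3K36R alone few members were called against the histone control, while most estimates were above 0. The genotype shares that control with the comparisons of combined H3K36R and H4K16R. By edgeR 3 members rose and 0 fell, where 0.947% of all tested genes rose and 1.02% fell. DESeq2 called 5 members higher and 0 lower, where it called 292 and 329 of all 14365 genes. At an unadjusted p below 0.05, 24 members were higher and 0 lower, a threshold at which no share of all genes is given here. The members had a median log2 change of 0.22, against 0.03 for all genes, and 56 of 60 estimates were above 0. The 5 markers of proliferating cells had log2 differences of 0.34 to 0.63 in the same comparison, and their part was not tested. Taf8 was at 4.73, 5.05, 7.34 and 5.89 CPM in the control and at 7.96, 8.23, 10.7 and 9.2 CPM in H3.3K36R alone (log2 0.65 ± 0.15, adjusted p = 0.0217), groups that do not overlap. Taf10 was at 14.4, 13.4, 18.4 and 15.1 CPM against 18.7, 19, 20.5 and 21.7 CPM (log2 0.38 ± 0.09, adjusted p = 0.0259). Polr2B was at 64.2, 71.6, 84.1 and 84.7 CPM in H3.3K36R alone, of which the lowest lies just under the highest control (log2 0.49 ± 0.12, adjusted p = 0.0238). All 3 calls were lost without any 1 of replicates 1, 2 and 4 of the control or replicates 3 and 4 of the mutant. Without replicate 3 of the control 6 members rose, where 187 of all tested genes did (136 with it). With the replicate numbers as a block, 854 of all tested genes were called in place of 282. Of these 601 were higher in place of 136, and more members rose as well. Members described whatever they did were close to the control: Polr2A was at 227, 239, 254 and 262 CPM, Taf1 at 112, 119, 125 and 125 CPM, and Taf4 at 165, 169, 166 and 174 CPM. MED14 was at 58.7, 68.3, 64.6 and 63.5 CPM, MED1 at 47.1, 51.3, 52.3 and 50.3 CPM, and TfIIB at 21.3, 22.1, 24 and 20.5 CPM. All 6 overlapped the control and none was called.

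In H4K16R larvae, in which a lysine of histone H4 is replaced, edgeR called 0 members higher and 0 lower, where 0.278% of all tested genes rose and 1.03% fell. DESeq2 called 3 higher and 0 lower, where it called 185 and 430 of all 14365 genes. At an unadjusted p below 0.05, 11 were higher and 0 lower, again with no share of all genes given here. The members had a median log2 change of 0.16, against 0.05 for all genes, and 52 of 60 estimates were above 0. The nearest to a call was MED15 (log2 0.31 ± 0.08, adjusted p = 0.0664). Polr2B was at 63.0, 59.6, 88.7 and 61.1 CPM, with replicate 3 high, and Polr2A at 187, 195, 238 and 177 CPM, again with replicate 3 the highest. Without that replicate 1 member, a TAF, was called lower, where 435 of all 14328 tested genes were (148 of 14365 with it). Taf1 was at 120, 124, 124 and 121 CPM, Taf4 at 193, 185, 184 and 192 CPM and MED1 at 53.1, 58.3, 55.9 and 54.2 CPM, above every control library but not called. MED14 was at 62.3, 69.4, 69.6 and 62.5 CPM and TfIIB at 20.2, 21.7, 23.8 and 19 CPM, groups that overlap the control. Without replicate 3 of the histone control, 1 Mediator gene was called higher, where 37 of all 14328 tested genes were (40 of 14365 with it).

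The histone control and yw, the references of the comparisons above, were set against each other. By edgeR 0 members were higher and 2 lower, where 4.0% of all tested genes were higher and 4.08% lower. DESeq2 called 1 higher and 2 lower, where it called 916 and 645 of all 14365 genes. At an unadjusted p below 0.05, 1 was higher and 6 lower, with no share of all genes given here. Taf2, a promoter-binding TAF, was at 32.1, 28.6 and 28.5 CPM in yw and at 19.2, 20.3, 24.2 and 22.6 CPM in the control (log2 -0.46 ± 0.13, adjusted p = 0.0226). MED7 was at 12.6, 13 and 12.1 CPM against 9.16, 10.7, 8.54 and 9.18 CPM (log2 -0.42 ± 0.10, adjusted p = 0.011). The groups did not overlap for either gene. Both calls were lost without yw replicate 2 and both without yw replicate 3, and that of Taf2 also without yw replicate 4 or control replicate 1 or 2, that of MED7 without control replicate 3. Of the 60 tested members, 48 had estimates below 0, with a median log2 change of -0.12, against -0.03 for all genes.

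**Figure D3:**
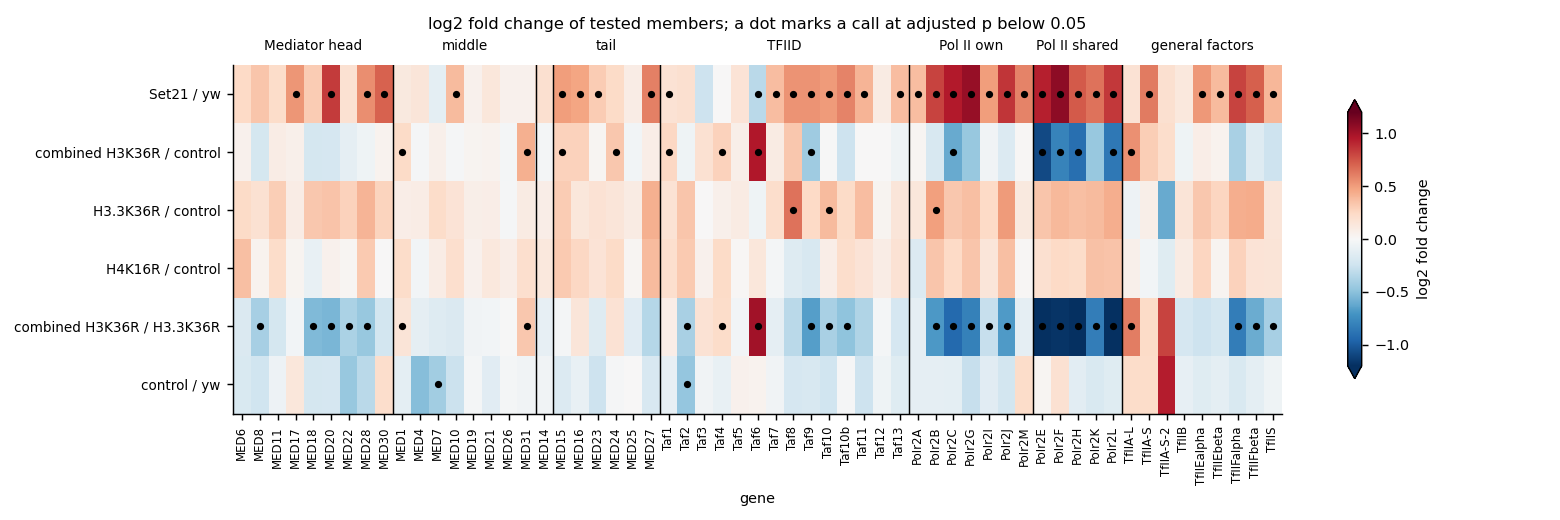
Log2 fold change (colour, blue lower and red higher, saturating at the ends of the scale) of the 59 tested members other than Taf12L (horizontal axis, by module) in 6 comparisons (vertical axis); a black dot marks an adjusted p below 0.05. All 12 polymerase columns are red with a dot in Set21, 5 of them are blue with a dot in combined H3K36R, and Taf6 shows the reverse.

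The effect of Set21 (against yw) and that of combined H3K36R (against the histone control) rest on different controls and were compared as a difference in the same model. The difference was positive for 26 members and negative for 3, where 27.9% of all tested genes were positive and 23.6% negative. The median was 0.34 for the members and 0.04 for all genes. It was positive for 11 of the 12 polymerase genes, with a median of 1.30, and the exception was Polr2A (0.34). Polr2E had the widest difference (2.01 ± 0.23, adjusted p = 7.35e-07), then Polr2F (1.87 ± 0.25), Polr2L (1.71 ± 0.29), Polr2H (1.64 ± 0.21) and Polr2C (1.55 ± 0.23). The 3 negative members were Taf6 (-1.29 ± 0.12, adjusted p = 1.05e-07), TfIIA-L (-0.38 ± 0.11) and MED31 (-0.37 ± 0.11). Without Set21 replicate 2 there were 5, where 3321 of all 14340 tested genes were negative (3389 of 14365 with it). With the axis as a covariate 11 members were positive, where 3035 of the 14365 genes tested were positive (4015 without the covariate). Of the 7 positive Mediator members, 4 were still called without yw replicate 4 or combined H3K36R replicate 1, and 3 without Set21 replicate 3. With the axis as a covariate, 7 of the 11 polymerase genes and none of the 7 Mediator genes were still called. With the length trend removed, 16 of the 26 were still called, and Polr2I, Polr2M and 6 of the 7 Mediator genes were not.

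Called in both mutants in opposite directions were 7 members. Polr2C, Polr2E, Polr2F, Polr2H, Polr2L and Taf9 were higher in Set21 and lower in combined H3K36R. They were 6 of the 35 members that rose in Set21 and 6 of the 6 that fell in combined H3K36R. Over all tested genes, 47.3% of those that rose in Set21 fell in combined H3K36R, and 48.5% of those that fell in combined H3K36R rose in Set21. Taf6 was lower in Set21 and higher in combined H3K36R. MED15 and Taf1 were higher in both.

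**Figure D4:**
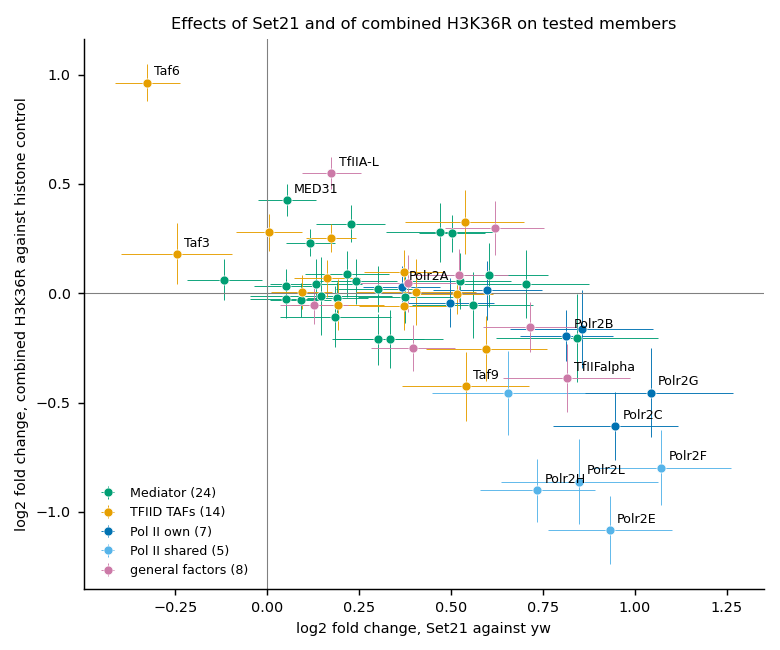
Log2 fold change in Set21 against yw (horizontal axis) and in combined H3K36R against the histone control (vertical axis) for the tested members other than Taf12L and TfIIA-S-2; bars are standard errors and colours mark the complexes. The shared polymerase subunits lie at the lower right, and Taf6 lies farthest to the upper left, at -0.33 and 0.96.

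Partners in the apparatus that bear other names were read from a list of complexes. TBP (Tbp) was at 12.8, 11.2 and 11 CPM in yw and at 15.4, 15.4, 15.5 and 13.4 CPM in Set21 (log2 0.35, called, but not without yw replicate 4). It was at 9.91, 10.8, 11.5 and 10.3 CPM in the histone control and at 8.57, 8.84, 10.3 and 10.7 CPM in combined H3K36R (log2 -0.14, not called). In H4K16R it was at 13.2, 11.8, 13.1 and 13.3 CPM and in H3.3K36R alone at 12.5, 11.7, 15 and 11.9 CPM. Of the 9 tested TFIIH genes 7 rose in Set21 (77.8%, against 23.4% of all tested genes, median 0.61), led by Tfb4 (0.89) and mrn (0.84). Only Tfb1 of them was called in combined H3K36R, and it was higher (0.30). The kinase module of Mediator split in Set21: Cdk8 (0.50) and its cyclin CycC (0.41) rose, skd fell by 0.40, and kto was not called (-0.04). For skd the levels were 258, 262 and 285 CPM in yw and 211, 228, 130 and 243 CPM in Set21. Its lowest value was in replicate 3 of Set21, the library that stood apart. In combined H3K36R, kto was the kinase-module gene called, and it was higher (0.25). Of 13 genes of SAGA, the acetyltransferase complex that shares TAFs with TFIID, 4 rose in Set21 (30.8%, against 23.4% of all tested genes) and 6 in combined H3K36R (46.2%, against 16.4%), among them Sgf29 (0.55), wda (0.50) and Ada2b (0.49). In flies wda takes the place in SAGA that Taf5 has in TFIID. Saf6, the counterpart of Taf6, was not called in combined H3K36R (0.16).

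The genes of the other polymerases moved with the shared subunits. Of 7 RNA polymerase I genes, 6 rose in Set21 (median log2 change 0.73) and all 7 fell in combined H3K36R (median -1.21). Of 9 tested RNA polymerase III genes, 8 rose in Set21 (median 0.60) and 8 fell in combined H3K36R (median -0.55). Over all tested genes, 23.4% rose in Set21 and 22.8% fell in combined H3K36R. The summed level of the 5 shared subunits was 86.5 to 119 CPM in yw, 150 to 219 CPM in Set21, 85.1 to 113 CPM in the histone control and 52.5 to 67.3 CPM in combined H3K36R. Of the muscle markers, 3 of 4 fell in combined H3K36R (median -0.39). The summed markers of proliferating cells were higher in Set21 (208 ± 17 CPM, n = 4) than in yw (115 ± 16.8 CPM, n = 3) and lower in combined H3K36R (44.3 ± 14.3 CPM, n = 4) than in the histone control (99.2 ± 24.7 CPM, n = 4). Within H4K16R, replicate 3 had the highest sum of both, 154 CPM for the shared subunits and 174 CPM for the markers. The part of these markers in the polymerase results was not tested. Summed Mediator levels moved over a narrower range, from 500 ± 23.7 CPM in the histone control to 611 ± 21.4 CPM in Set21.

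**Figure D5:**
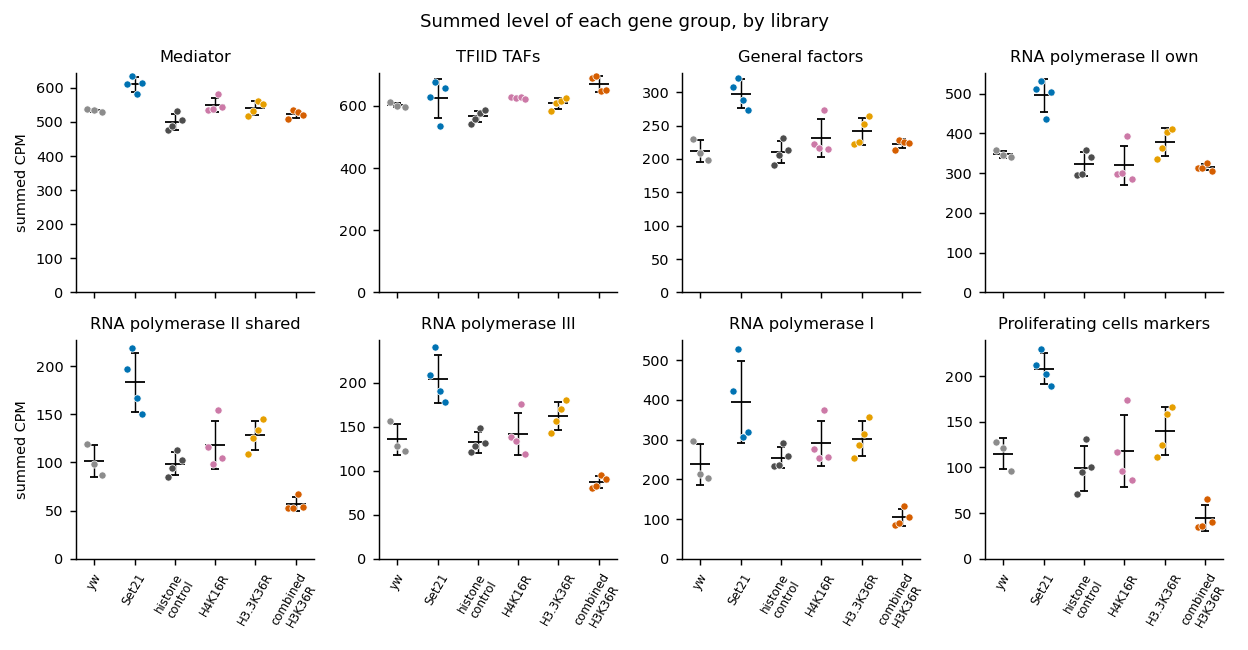
Summed CPM (vertical axis) of each gene group in each library of the 6 genotypes (horizontal axis); points are libraries, bars the mean ± SD. The means of the shared RNA polymerase II subunits, RNA polymerases I and III and the proliferation markers are highest in Set21 and lowest in combined H3K36R. For the shared subunits and polymerases I and III, single libraries of other genotypes reach into the Set21 range. The Mediator means stay between 500 and 611 CPM, with the highest in Set21 as well.

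Within the 58 members other than Taf12L and TfIIA-S-2, shorter genes had the higher log2 changes in Set21 (Spearman's rho -0.47 with exon length) and the lower ones in combined H3K36R (rho 0.48). Over 14294 genes the same rho was -0.16 and 0.11. These are correlations across genes of the same libraries, given as a description. With the trend of log2 change on length removed, all 12 polymerase genes remained called higher in Set21 and the same 5 lower in combined H3K36R. In that setting MED1, Taf1 and Taf9 lost their calls in combined H3K36R, Taf11 and TfIIEbeta lost theirs in Set21, and Polr2I was no longer lower than in H3.3K36R alone.

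The testis paralogs of TAFs, which work in male germ cells, were near 0 apart from mia. Of all counts from 5 to 19 in the table, 62.1% were even, against 49.9% of counts from 1000 up, and whether both ends of a read pair were counted is not stated, so low counts may stand for fewer fragments. Taf12L, the paralog of Taf12 and a member by its symbol, had 4, 13 and 0 counts in yw, 62, 30, 47 and 12 in Set21, and 0, 29, 6 and 14 in the histone control. It had 7, 0, 36 and 31 counts in H4K16R, 27, 26, 25 and 17 in combined H3K36R and 12, 8, 14 and 56 in H3.3K36R alone. It was called in none of the 7 comparisons. The other paralogs bear names outside the rule. For can, the Taf5 paralog, 0 to 39 counts were found in any library, and for nht, the Taf4 paralog, which was not tested, 0 to 10. The Taf8 paralog sa had 0, 2 and 2 counts in yw and 18, 7, 19 and 9 in Set21 (adjusted p = 0.0473, lost without any 1 yw library or without Set21 replicate 1 or 3). It had 5, 0, 7 and 8 counts in the histone control and 49, 38, 55 and 74 in combined H3K36R, and was called higher there (log2 3.3). The Taf6 paralog mia, at 335 to 877 counts, was at 4.07 ± 1.52 CPM in yw and 5.03 ± 0.833 CPM in Set21, 3.85 ± 0.921 CPM in the histone control and 3.91 ± 0.563 CPM in combined H3K36R, and was called nowhere. Summed markers of the male germline were at 0.693 to 2.01 CPM over all libraries. TfIIA-S-2, a low paralog of TfIIA-S, had 12 to 125 counts and was called in no comparison.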

How the data were processed

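The deposited table held raw read counts per gene for 23 libraries. The submitters' processing notes name the tools STAR (2.7.2a) and Subread (2.0.3). Build, annotation and strand setting of the counting: not given in the sources used here. Names and positions came from BDGP6.54 (17527 of 17606 identifiers matched). The members, lists and tests were chosen with earlier results of these data known. A filter on low counts (filterByExpr, minimum 10) left 14365 genes. Libraries were scaled by TMM, and a quasi-likelihood model with 1 mean per genotype was fitted to all libraries (edgeR 4.0.16, R 4.3.3, 17 residual degrees of freedom). Two-sided p-values had Benjamini-Hochberg adjustment across the tested genes, and a call is an adjusted p below 0.05. The axis of spread is the first principal component of the residuals within the histone genotypes. CPM are TMM-scaled, and SE is that of the log2 fold change. The fit was also run on simulated counts with planted changes larger than most called here and without an axis of spread. That run cannot tell how well small changes are called. DESeq2 1.42.0, other scalings and filters, and leaving out each library were alternatives. The labels do not say whether replicates came from separate crosses, so p-values measure the spread between these samples. Values in every library are given for up to 5 called genes with the largest rise or fall per comparison, with a mean of at least 5 CPM and groups that do not overlap, for Polr2A, Polr2B, Taf1, Taf4, MED14, MED1, TfIIB and Tbp, and for testis paralogs; MED20, TfIIFalpha, Taf3 and MED26 were added after their values were seen.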

Additional observations from a re-analysis of the deposited data

Results flagged for a closer look

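Of 115 sets of 4 libraries looked at for 1 value far from the rest, 7 had such a value, and chance gives about 1 in 20. Polr2A was low in replicate 3 of Set21, at 252 CPM against 324 to 338 CPM in the other 3. Polr2J was high in replicate 2 of Set21, at 20.1 CPM, with 17.1 CPM the next. Polr2B and Polr2L were both high in replicate 3 of H4K16R, at 88.7 CPM (next 63.0 CPM) and 18.9 CPM (next 11.5 CPM), the library that also stood apart on the axis of spread. MED1 was high in replicate 2 of combined H3K36R, at 59.1 CPM against 54.7 to 55.3 CPM. Tbp was low in replicate 4 of Set21, at 13.4 CPM against 15.4 to 15.5 CPM, and in replicate 2 of H4K16R, at 11.8 CPM against 13.1 to 13.3 CPM.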

How the results depend on the processing

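The counts of members called were recomputed with 9 other settings and with each library left out. With the axis of spread as a covariate, 13 members rose and 0 fell in Set21, 5 rose in H4K16R and 1 in the histone control against yw, and 11 had a positive difference between the Set21 and combined H3K36R effects. In that setting 1403 of the 14365 tested genes rose and 1854 fell in Set21. Of the same genes 210 rose in H4K16R and 798 in the control against yw, and 3035 had a positive difference. Fitting only the groups compared gave 0 higher in H3.3K36R alone and 1 lower in the control against yw. Of all genes tested in those fits, 118 were higher and 577 lower. DESeq2 gave 5 higher in H3.3K36R alone, 3 in H4K16R, 8 in combined H3K36R against H3.3K36R alone and 1 in the control against yw. Over all genes it gave 292, 185, 3501 and 916 higher, where the main fit gave 136, 40, 2835 and 575. RLE size factors gave 8 and 1 members higher in combined H3K36R against H3.3K36R alone and in the control against yw. A minimum count of 50 did so too and gave 1 higher in H4K16R. Over all genes RLE gave 3320 and 658 higher. The minimum count of 50 gave 3274 and 701 of 12132 tested, and 54 in H4K16R. With the length trend removed, 2 members rose in H4K16R (66 of all tested genes) and 1 in the control against yw (685). In that setting the differences of effects of MED1 and Taf1 turned to 0.28 and 0.40. The cause was not tested.

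With 1 library left out at a time, Set21 gave 27 to 40 members higher and 1 lower, combined H3K36R 7 to 9 and 5 to 10. H3.3K36R alone gave 0 to 6 higher, H4K16R 0 to 1 higher and 0 to 1 lower. The control against yw gave 0 to 1 higher and 0 to 2 lower. Combined H3K36R against H3.3K36R alone gave 3 to 6 higher and 15 to 21 lower. The difference of effects gave 20 to 27 positive and 3 to 5 negative. Over all tested genes, Set21 gave 2373 to 3541 higher and 2494 to 3120 lower, combined H3K36R 1964 to 2301 and 2811 to 3251. H3.3K36R alone gave 63 to 201 higher, H4K16R 12 to 45 higher and 49 to 435 lower. The control against yw gave 363 to 666 and 301 to 417. Combined H3K36R against H3.3K36R alone gave 2461 to 3170 and 3454 to 3748. The difference of effects gave 3750 to 4116 and 3048 to 3480.

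The labels name no batch or day behind the replicate numbers, and not every same-numbered pair correlated above 0.1, so the numbers were not taken to pair the libraries. Deviations had a median correlation of 0.03 (-0.102 to 0.432, n = 55) for equal numbers and -0.01 (-0.43 to 0.225, n = 165) for unequal ones. Among the histone genotypes, the correlations of equal numbers were 0.133 to 0.328 for replicate 1 and 0.171 to 0.432 for replicate 3. They were -0.0036 to 0.0782 for replicate 2 and -0.102 to 0.114 for replicate 4. In 48 of 110 cases a library correlated best with its own number, a hint from the data and not from the design. The replicate block gave 7 members higher in H3.3K36R alone, 1 in H4K16R and 39 in Set21. Over all genes it gave 854 calls in H3.3K36R alone against 282 without it, with 601 higher against 136. In H4K16R 66 of all genes were higher with it against 40 without it, and in Set21 3668 against 3361. As a mean of log2 CPM in place of a sum, the log2 ratio of Set21 to yw was 0.29 for Mediator (0.19 as a sum), 0.24 for the TAFs (0.05) and 0.73 for the polymerase's own subunits (0.51), and that of combined H3K36R to the control was 0.10 (0.25) for the TAFs and -0.19 (-0.04) for the polymerase's own subunits. Members with few counts limit what can be seen of the testis paralogs.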
